A study of Homo sapiens with 6 samples.

Results

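Brachyury and SP5 are transcription factors that Wnt signalling switches on in the early embryo. Their levels, with those of EOMES, GSC, FOXA2, GATA6, EVX1, MSX1, MSX2 and TBX3, were followed on 6 NimbleGen arrays of HEK293, an established line that came from kidney of a human embryo. These 10 genes, of 23596 on the array, were chosen by name. Every probe set carrying 1 of their names was kept, which gave 17 of 45033 probe sets. The choice was made with the Wnt3a response of brachyury and SP5 in these data known, so values in Wnt3a against control medium are a description with no test. Brachyury is written T on the array, and its current symbol is TBXT.

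Each of 3 groups had 2 arrays, and all cells were transfected for about 40 hours before a 7-hour exposure to medium. The first group received control shRNA and control conditioned medium, the second control shRNA and Wnt3a conditioned medium, and the third SET8 shRNA and Wnt3a conditioned medium. SET8, now named KMT5A, adds a methyl group to a lysine of histone H4, and the study asked about its part in the activation of Wnt target genes. SET8 shRNA in control medium was not analysed here, so an effect of the shRNA alone and an effect on the Wnt3a response cannot be told apart. The study's design text also calls the transfected agents siRNA. All cells were of the same line, and conditioned medium can carry other secreted factors besides Wnt3a.

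In the gastrulating embryo, cells leave the epiblast through the primitive streak to form mesoderm and endoderm. Secreted Wnt ligands stabilise beta-catenin, which enters the nucleus and activates genes through the TCF and LEF factors bound at their DNA sites. Brachyury, a T-box factor of the streak and notochord, and SP5, a zinc finger factor of the Sp family that binds GC-rich DNA, are established targets of this pathway.

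The promoters of both genes are shown because TCF and LEF factors recognise a short core, CTTTG, read on either strand. Promoters came from RefSeq, build GRCh38.p14, and 8 of the 10 genes were matched, with 9 windows of the 250 bases before a transcription start, since T has 2 starts. FOXA2 and TBX3 were not matched. Cores are in capitals in both sequences, and CAAAG is the core read on the opposite strand. The SP5 window lies on the plus strand at chr2:170715087-170715336 and ends at the base before the start. The T stretch lies on the minus strand at chr6:166167920-166167949, within the window of the downstream start.
SP5: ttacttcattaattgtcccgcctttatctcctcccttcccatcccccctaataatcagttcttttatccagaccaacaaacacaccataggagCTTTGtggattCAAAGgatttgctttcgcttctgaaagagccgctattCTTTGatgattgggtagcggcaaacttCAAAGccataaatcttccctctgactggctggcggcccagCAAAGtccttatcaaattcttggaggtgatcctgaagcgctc
T: tgcccggcacttCAAAGcgtgcgcggccca

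The SP5 window held 5 cores, whose first bases lay 157, 146, 109, 82 and 42 bases before the start. Of 35116 windows of 27305 genes, 30 (0.0854%) held 5 or more, and 42.1% held at least 1. Windows of neighbouring starts of a gene can overlap. The window of the downstream T start held 1 core, 86 bases before that start, and the window of the upstream T start held none. GSC had 1 core, 238 bases before its start, and the windows of EOMES, GATA6, EVX1, MSX1 and MSX2 had none.

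Longer forms of the core were also counted on both strands, and each contains the shorter form. CTTTGA occurred 3 times in the SP5 window, a number reached by 0.0655% of windows, and 1 time in the window of the downstream T start, a number reached by 11.2%. CTTTGAT occurred 1 time in the SP5 window, against 2.26% of windows with at least 1. The GC box GGGCGG, the kind of site that Sp factors bind, occurred 1 and 2 times in the T windows and 2 times each in GSC and MSX1, where 24.3% of all windows held 2 or more. The T-box half-site AGGTGTGA was in none of the 9 windows and in 0.786% of all windows. These matches describe letters only, and no binding was measured.

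**Figure D1:**
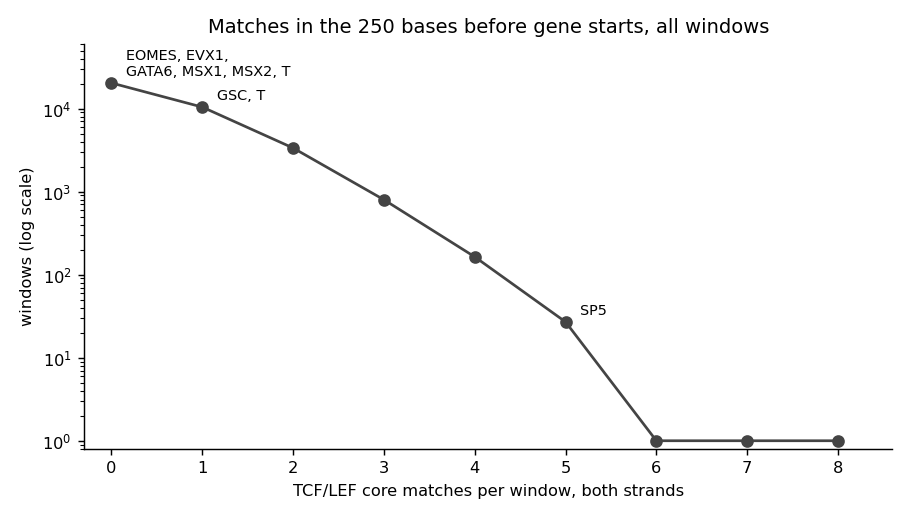
Number of windows, on a log scale, by their count of CTTTG matches on either strand in the 250 bases before the transcription start. All windows are counted, and members with a RefSeq promoter are named at their number of matches. SP5 holds 5 cores, the downstream T start and GSC hold 1 each, and the other member windows hold none.

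On the arrays, levels are log2 intensities as the authors normalised them, and a difference of 1 is a doubling. Each member probe set joins 3 probes. The random control probes of the array stood between 4.66 and 4.84 on the log2 scale, and the array medians between 7.63 and 7.79. Levels of different genes were not compared with each other. Probe sets above the array median on at least 2 arrays were tested with limma, and 14 of the 17 member probe sets were among the 23808 tested. T (NM_003181), EOMES and EVX1 were below that level on all 6 arrays and were not tested. Their standard errors (SE) come from the same model without the filter.

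The targeted gene KMT5A read 11.03 and 10.75 with control shRNA and control medium, 11.20 and 10.53 with control shRNA and Wnt3a medium, and 8.97 and 9.65 with SET8 shRNA. Its difference between shRNAs was -1.56 (SE 0.34), with a limma adjusted p of 0.24, and the arrays did not overlap. Replicate arrays correlated at 0.955 to 0.978 over the tested probe sets. Of 8 HEK293 markers, 6 to 8 were above the array median on every array, with the keratin KRT8 brightest at 14.39 to 14.66. PAX2, at 7.32 to 8.13, and PAX8, at 6.82 to 7.85, were the dimmest of the 8. Each was below the median on most arrays. Of 6 pluripotency markers, NANOG, LIN28A, DPPA4 and ZFP42 were below the median on every array, POU5F1 was above it on 2 arrays, at 7.95 and 7.99, and SOX2 was above it on all 6, at 8.70 to 9.08. Of 8 fibroblast markers, 1 to 4 were above the array median per array. Their summed intensity, as log2, was 12.57 to 12.62 in control medium, 12.61 to 12.80 in Wnt3a medium and 12.18 to 12.29 with SET8 shRNA. COL1A1, at 11.99 to 12.70, carried that sum. The median difference of the 8 was -1.10 for Wnt3a medium, -0.22 between shRNAs and -1.16 for both together. Only 2 of the 8 were bright enough to test. For Wnt3a medium 5 were lower without overlap, and DCN, too dim to test, was lowest at -2.09. For both together 7 were lower without overlap. The shares of all genes lower in this way were 11.7% for Wnt3a medium and 18.2% for both together. Of 6 blood cell markers, 2 to 4 were above the array median. Their summed intensity, as log2, was 10.99 to 11.34, 11.28 to 11.37 and 10.25 to 10.30 in the same group order. Their median difference was 0.35 for Wnt3a medium, -0.99 between shRNAs and -0.73 for both together. Between shRNAs 5 were lower without overlap, where 17.3% of all genes were lower in this way. At most 1 marker of either list was at or below the random probes on any array. The part of either list in the members' values was not tested, and fewer cells of a type and less RNA per cell cannot be told apart in bulk RNA.

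Brachyury was near the bottom of the array in control medium and stood higher on every array given Wnt3a medium. Its probe set with the higher mean over the 6 arrays (BC098425, named for a transcript at chr6:166491134-166502120 in hg18) read 5.46 and 5.35 in control medium. It read 7.93 and 7.42 in Wnt3a medium with control shRNA. With SET8 shRNA in Wnt3a medium it read 8.67 and 8.18. The 3 groups did not overlap, and the order was control medium, Wnt3a medium, then SET8 shRNA with Wnt3a medium. The group means were 5.41 ± 0.08, 7.67 ± 0.36 and 8.42 ± 0.35 (SD, n = 2). This probe set was above the array median on 3 arrays, all with Wnt3a medium, so it entered the test only through the groups in which it was bright.

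Wnt3a medium against control medium gave T (BC098425) a log2 difference of 2.26 (SE 0.29), a 4.80-fold higher intensity, where 0% of tested probe sets were called. With SET8 shRNA and Wnt3a medium against control shRNA and control medium the difference was 3.01 (SE 0.29), 8.08-fold, and T rose at a limma adjusted p of 0.0476. It was the only member probe set called in that comparison, in which 0.0504% of all tested probe sets were called, 0.0252% higher and 0.0252% lower. Both control arrays are also those of the Wnt3a comparison, from which T was chosen, so this call is not independent of the choice. Without SET8 shRNA replicate 1 its adjusted p was 0.563, without SET8 shRNA replicate 2 it was 0.653, and without control medium replicate 2 it was 0.0687. With all probe sets on the array tested it was 0.164.

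Between shRNAs in Wnt3a medium, T (BC098425) was 0.75 higher with SET8 shRNA (SE 0.29, 95% interval 0.08 to 1.42), and the limma adjusted p was 0.627. Both SET8 shRNA arrays stood above both control shRNA arrays, but the difference did not pass the threshold. No probe set on the array passed it in this comparison (0% called), where 1705 of 23808 had an unadjusted p under 0.05. The Wnt3a arrays with control shRNA were also used in the choice of T, so its difference here is not independent of that choice.

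The second T probe set (NM_003181, chr6:166491075-166502121 in hg18) targets the same gene with other probes and is no independent replicate. It read 4.68 and 6.23 in control medium, 6.58 and 6.92 in Wnt3a medium with control shRNA, and 7.70 and 7.50 with SET8 shRNA. Its groups had the same order, also without overlap. The control medium replicate 1 value lay below the random probes of that array (4.75), the only member value to do so. Its differences were 1.30 for Wnt3a medium, 0.85 between shRNAs and 2.15 for both together, each with an SE of 0.49. Without that control array, the Wnt3a difference was 0.52.

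SP5 also stood higher in both Wnt3a groups, but its order between the shRNAs was not that of T. Its only probe set (NM_001003845, chr2:171280106-171282743 in hg18) read 6.87 and 7.45 in control medium. It read 9.32 and 9.97 in Wnt3a medium with control shRNA, and 9.44 and 8.99 with SET8 shRNA. All 4 arrays with Wnt3a medium stood above both control medium arrays, and the 2 Wnt3a groups overlapped. The group means were 7.16 ± 0.41, 9.64 ± 0.46 and 9.22 ± 0.32 (SD, n = 2). As with T, SP5 passed the filter only through arrays with Wnt3a medium.

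The SP5 difference was 2.48 (SE 0.34) for Wnt3a medium, a 5.59-fold higher intensity. For SET8 shRNA and Wnt3a medium together against both controls it was 2.06 (SE 0.34), 4.16-fold, with a limma adjusted p of 0.0874. That adjusted p was 0.0174 when only the 4 arrays compared were fitted. Leaving out either Wnt3a array with control shRNA is the same fit for this comparison. Neither adjusted p is independent of the choice of SP5, since the control arrays are those of the Wnt3a comparison from which it was chosen. Between shRNAs the difference was -0.43 (SE 0.34, 95% interval -1.22 to 0.36, limma adjusted p 0.921), and with 1 array left out it ranged from -0.76 to -0.10. The Wnt3a arrays with control shRNA were also used in the choice of SP5, so this difference is not independent of that choice. Whether SET8 shRNA acted differently on SP5 and on T was not tested.

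**Figure D2:**
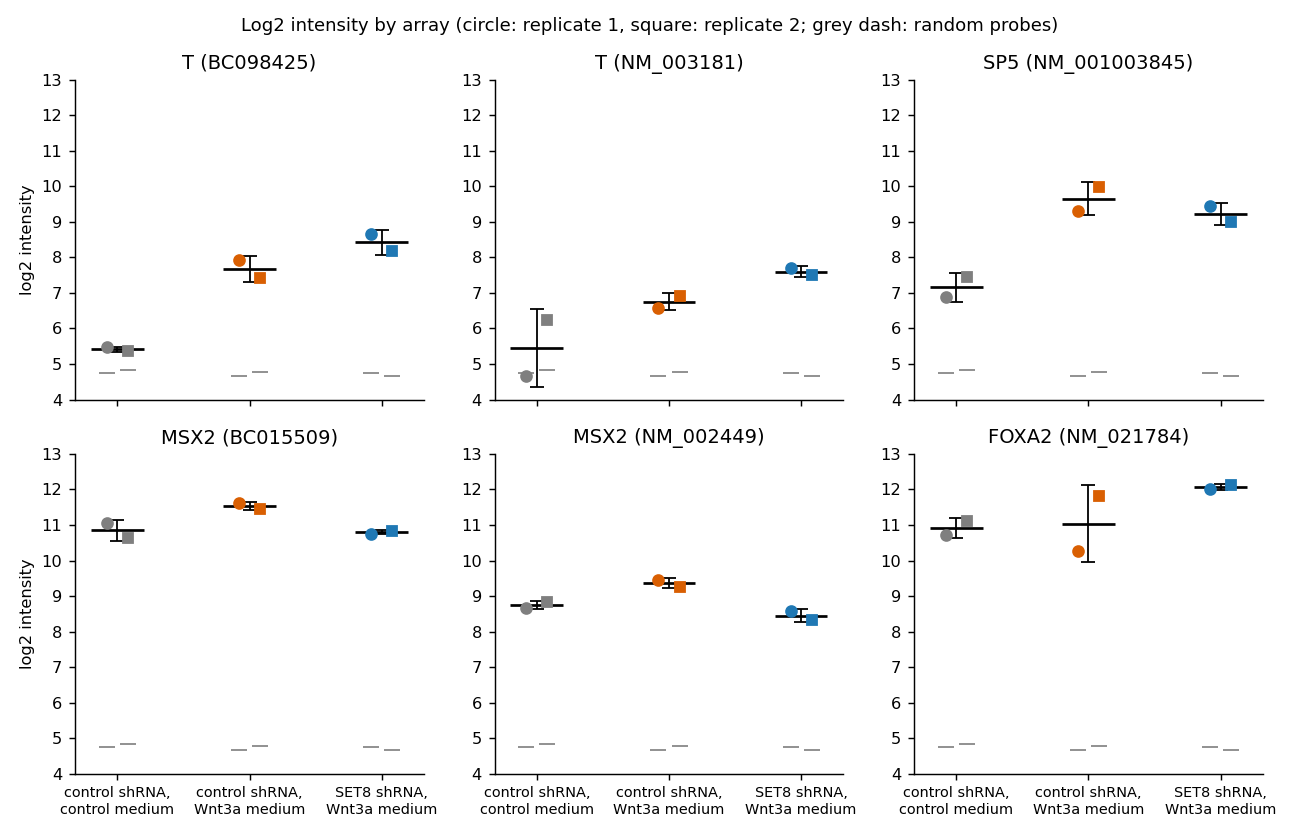
Log2 intensity of both T probe sets, SP5, both MSX2 probe sets and FOXA2 (NM_021784) on each array, with bars for group mean ± SD (n = 2) and grey dashes for the random probes. T (BC098425) stood at 5.35 to 5.46 in control medium and at 7.42 to 8.67 in Wnt3a medium, and SP5 at 6.87 to 7.45 and 8.99 to 9.97.

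EOMES and EVX1, the other members that mark the streak most directly, were dim on every array. EOMES, a T-box factor needed for mesoderm and endoderm, read 6.62 and 5.43 in control medium, 7.46 and 5.26 in Wnt3a medium with control shRNA, and 7.07 and 7.62 with SET8 shRNA (NM_005442, chr3:27732871-27738789 in hg18). The 2 Wnt3a arrays with control shRNA were the highest but 1 and the lowest of the 6, with an SD of 1.56 in that group. The differences were 0.33 for Wnt3a medium, 0.99 between shRNAs and 1.32 for both together, each with an SE of 0.71. Without replicate 1 of the Wnt3a arrays with control shRNA the Wnt3a difference was -0.77 and that between shRNAs 2.09, and without replicate 2 they were 1.43 and -0.11. Only the comparison of both together had groups that did not overlap.

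EVX1, a homeobox factor of the posterior streak, read 5.84 and 6.03, then 5.92 and 6.28, then 5.42 and 6.17 in the same group order (NM_001989, chr7:27248945-27252717 in hg18). All 3 groups overlapped, and its differences were 0.17, -0.30 and -0.14 (SE 0.34 each).

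GSC, a homeobox factor of the organiser and anterior streak, was lowest with SET8 shRNA on both of its probe sets. The first (NM_173849, chr14:94304312-94306252 in hg18) read 7.82 and 8.19 in control medium, 7.85 and 7.92 in Wnt3a medium with control shRNA, and 7.51 and 6.80 with SET8 shRNA. The second (BC063580) read 7.45 and 8.03, then 7.34 and 7.81, then 6.95 on both SET8 shRNA arrays. In each, both SET8 shRNA arrays lay below all 4 arrays with control shRNA, while control and Wnt3a medium overlapped. The differences between shRNAs were -0.72 (SE 0.30) and -0.63 (SE 0.29), with limma adjusted p of 0.687 and 0.731, so neither passed the threshold. Against control medium they were -0.85 and -0.79, with limma adjusted p of 0.376 and 0.392.

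FOXA2 and GATA6, factors of the endoderm, were well above the array median on all 6 arrays. FOXA2, a forkhead factor of endoderm and floor plate, read 10.71 and 11.11 in control medium, 10.27 and 11.81 in Wnt3a medium with control shRNA, and 12.01 and 12.13 with SET8 shRNA (NM_021784, chr20:22509822-22513101 in hg18). Its other probe set (BC011780) read 10.80 and 10.74, then 10.87 and 11.24, then 11.75 and 11.37. On both, the SET8 shRNA arrays stood above the 4 others, and the Wnt3a arrays of the first lay far apart. The differences between shRNAs were 1.03 (SE 0.47) and 0.50 (SE 0.26), with limma adjusted p of 0.724 and 0.786. The first was 0.26 without Wnt3a replicate 1 of the control shRNA and 1.80 without replicate 2. Against control medium they were 1.16 (SE 0.47) and 0.79 (SE 0.26), with limma adjusted p of 0.445 and 0.322.

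GATA6, a zinc finger factor of endoderm and heart, read 10.17 and 9.83 in control medium, 10.00 and 9.87 in Wnt3a medium with control shRNA, and 10.50 and 10.24 with SET8 shRNA (NM_005257, chr18:18003413-18036225 in hg18). Its other probe set (X95701) read 10.09 and 10.01, then 9.58 and 9.74, then 10.43 and 10.29. Both placed the SET8 shRNA arrays highest, and only the second had Wnt3a medium below control medium without overlap. The differences between shRNAs were 0.43 (SE 0.25) and 0.70 (SE 0.22), with limma adjusted p of 0.829 and 0.485. Those for Wnt3a medium were -0.06 and -0.39.

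MSX1 and MSX2 are homeobox factors known as targets of BMP and Wnt signals, and the signs of their differences were opposite in both the Wnt3a and the shRNA comparison. MSX2 (BC015509, chr5:174084245-174089493 in hg18) read 11.06 and 10.64 in control medium, 11.62 and 11.45 in Wnt3a medium with control shRNA, and 10.75 and 10.84 with SET8 shRNA. Its other probe set (NM_002449) read 8.66 and 8.83, then 9.46 and 9.27, then 8.59 and 8.32. On both probe sets the Wnt3a arrays with control shRNA stood above all 4 others. The Wnt3a differences were 0.68 (SE 0.25) and 0.62 (SE 0.24). Between shRNAs MSX2 differed by -0.74 (SE 0.25, 95% interval -1.32 to -0.16) and -0.91 (SE 0.24, 95% interval -1.47 to -0.36), with limma adjusted p of 0.530 and 0.339. Both comparisons share the Wnt3a arrays with control shRNA, so a deviation of those arrays would move them in opposite directions. Against control medium, SET8 shRNA with Wnt3a medium gave -0.06 and -0.29.

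MSX1 (BC067353, chr4:4912532-4916180 in hg18) read 11.27 and 11.67 in control medium, 11.16 and 11.40 in Wnt3a medium with control shRNA, and 11.70 and 11.44 with SET8 shRNA. Its other probe set (NM_002448) read 11.20 and 11.71, then 11.07 and 11.09, then 11.76 and 11.65. On both, the SET8 shRNA arrays stood above those with control shRNA and Wnt3a medium. The differences between shRNAs were 0.29 (SE 0.26) and 0.63 (SE 0.26), with limma adjusted p of 0.933 and 0.672, and those for Wnt3a medium were -0.19 and -0.38. Against control medium the SET8 shRNA arrays overlapped on both probe sets.

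TBX3, a T-box repressor and Wnt target in several tissues, gave unlike values on its probe sets. The first (NM_005996, chr12:113592441-113606352 in hg18) read 10.42 and 10.56 in control medium, 10.41 and 10.34 in Wnt3a medium with control shRNA, and 9.54 and 10.01 with SET8 shRNA. The second (BC025258) read 7.98 and 7.38, then 8.41 and 7.34, then 7.51 and 7.65. The first was lowest with SET8 shRNA without overlap, at -0.61 between shRNAs (SE 0.25, limma adjusted p 0.684), and the second overlapped in all 3 comparisons. TBX3 was also the only gene whose 2 probe sets differed in sign for Wnt3a medium, at -0.11 and 0.20.

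**Figure D3:**
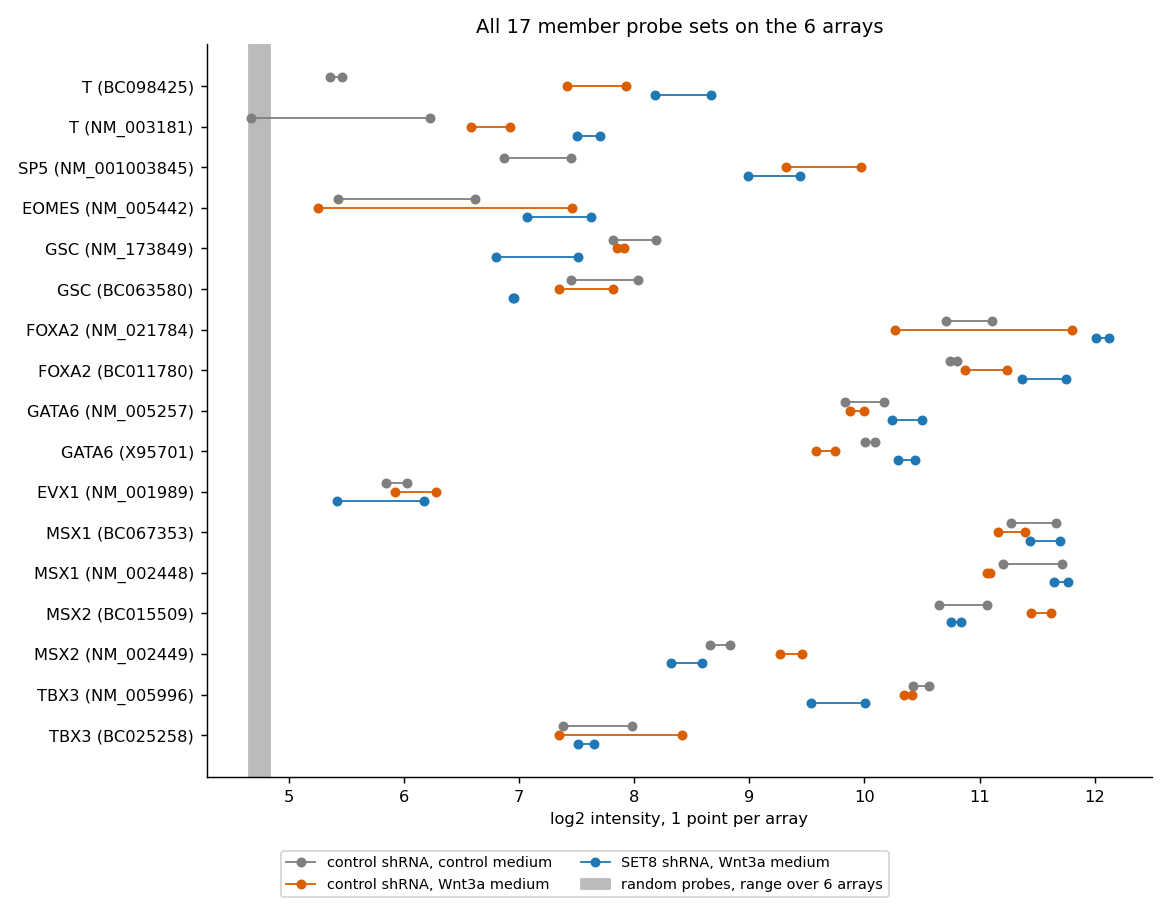
Log2 intensity of all 17 member probe sets, 1 point per array, coloured by group, with the range of the random control probes shaded. Only T and SP5 had all 4 arrays with Wnt3a medium at least 1 unit above both control arrays on a probe set, and the T probe set NM_003181 had 1 array inside the random range.

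Across all members, 6 of 17 probe sets were higher on both Wnt3a arrays than on both control medium arrays, namely both of T, SP5, both of MSX2 and FOXA2 (BC011780), and 3 were lower. Over the whole array 14.8% of probe sets were higher and 11.9% lower in this way. This comparison was used in the choice of members, so nothing is read from that count. Between shRNAs, 8 of 17 were higher without overlap, both probe sets of T, FOXA2, GATA6 and MSX1, and 5 were lower, both of GSC and MSX2 and TBX3 (NM_005996). The shares over the whole array were 16.4% and 16.7%. Probe sets of 1 gene share their target, so these counts stand for 4 and 3 genes. T is among the higher ones and was chosen partly on the Wnt3a arrays with control shRNA. Nothing is therefore read from these counts.

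For SET8 shRNA and Wnt3a medium together against both controls, 8 of 17 were higher and 4 lower without overlap, against 20.5% and 17.7% over the whole array. These counts stand for 5 and 3 genes. T and SP5 are among the higher ones and were chosen on the same control arrays, so nothing is read from these counts. The median log2 difference over the 17 was 0.17 for Wnt3a medium, 0.29 between shRNAs and 0.25 for both together, and over all probe sets it was 0.02, 0.0043 and 0.01. The same limit holds for the medians in all 3 comparisons. The comparison of shRNAs uses the Wnt3a arrays with control shRNA, which also took part in the choice of T and SP5. Of the 7 genes with 2 probe sets, 6 had the same sign on both for Wnt3a medium and 7 in each of the other comparisons. The 2 probe sets differed by 0.04 to 0.97 in the Wnt3a comparison, with the largest gap at T.

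**Figure D4:**
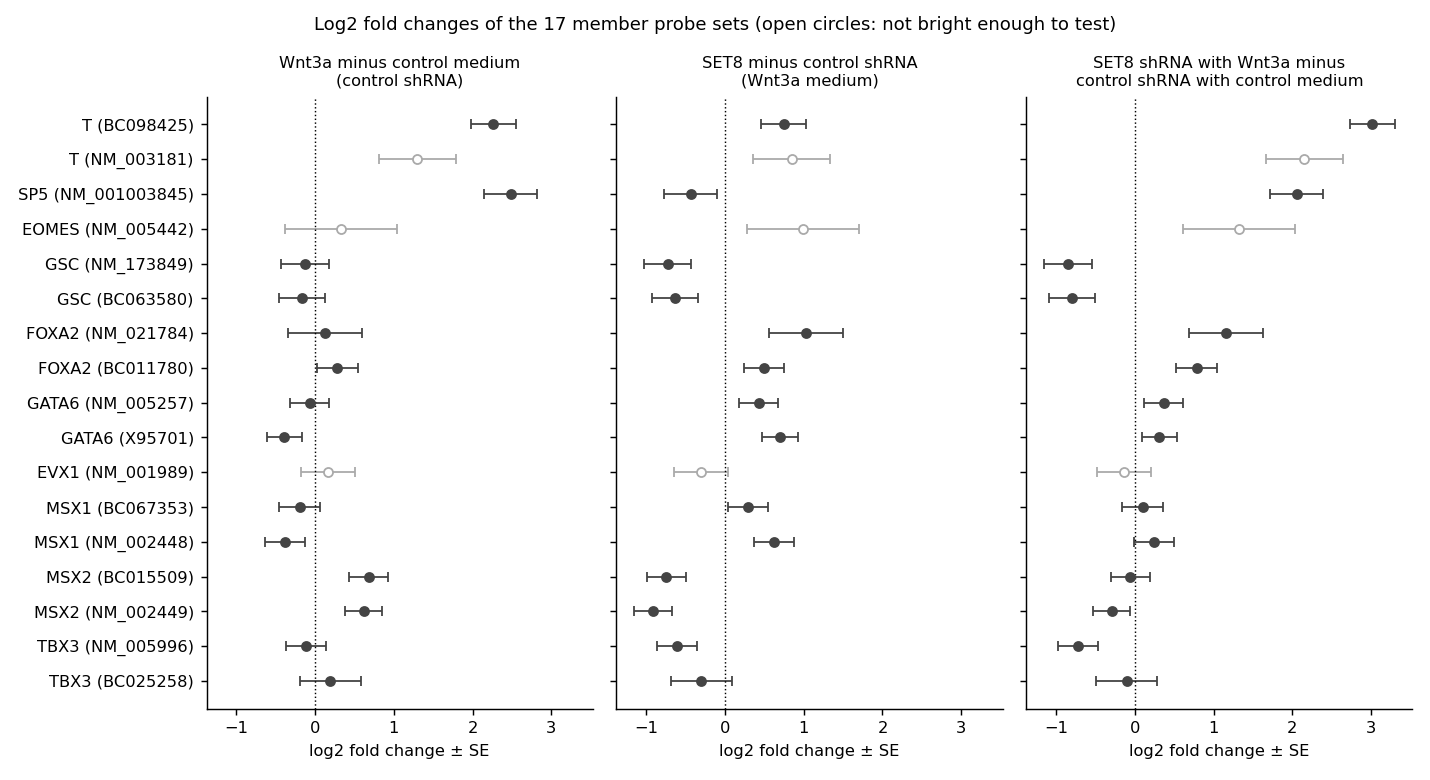
Log2 fold changes of the 17 member probe sets in the 3 comparisons, with bars for ± SE and open circles for the 3 probe sets too dim to test. T (BC098425) lay at 2.26, 0.75 and 3.01 and SP5 at 2.48, -0.43 and 2.06, while MSX2 (NM_002449) lay at 0.62, -0.91 and -0.29.

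Other genes of the streak, mesoderm and endoderm were read from a list of 42, of which 41 were on the array and 22 bright enough to test, taking for each the probe set with the highest mean over the 6 arrays. None was called by limma in any of the 3 comparisons. Their median log2 differences were 0.05 for Wnt3a medium, 0.11 between shRNAs and 0.15 for both together, and those of all 23596 genes were 0.02, -0.00078 and 0.01. In Wnt3a medium 7 of the 41 (17.1%) were higher and 6 (14.6%) lower without overlap, and over all genes 15.0% were higher and 11.7% lower. The genes named next were picked after their values were seen. MIXL1, a homeobox factor of the streak, was 0.86 higher in Wnt3a medium (SE 0.31) but too dim to test. HAND1, a factor of lateral mesoderm, was 0.79 higher (SE 0.22), and FGF4, a streak growth factor, was too dim to test at -1.33 (SE 0.72). GATA5, an endoderm and heart factor, was 1.26 higher with SET8 shRNA and Wnt3a medium than in control medium (SE 0.41, limma adjusted p 0.327).

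Relatives of the members gave no call either. The median Wnt3a difference was -0.13 over 14 other T-box genes, 0.10 over 7 other Sp family genes and 0.08 over 7 other GATA and FOXA genes. Between shRNAs these medians were 0.10, 0.40 and 0.12, and 3 of the 7 Sp genes were bright enough to test. A list of 9 feedback and target genes of Wnt signalling, such as AXIN2 and NKD1, had a median of 1.07 for Wnt3a medium, with all 9 above 0 and 6 higher without overlap, where 15.0% of all genes were higher in this way. Between shRNAs its median was -0.22, with 2 of 9 above 0, and for both together it was 1.10.

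The genes most like T and SP5 were sought among 670 genes whose group means spanned at least 1 on the log2 scale, by Pearson's correlation over the 6 arrays. With so few arrays in 3 groups, and with arrays and group steps shared, these are descriptions. For T (BC098425) the highest were EFNB3, an ephrin ligand, at 0.991, AQP3, a water and glycerol channel, at 0.985, COX6B2 at 0.985, TCHH at 0.984 and HLA-DMB at 0.981. EFNB3 read 10.33 and 10.43 in control medium, 11.23 and 11.22 in Wnt3a medium with control shRNA, and 11.65 and 11.41 with SET8 shRNA, the same order of groups as T over a smaller range. In all, 24 genes correlated with T above 0.95.

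For SP5 the highest were PRSS8, a membrane serine protease, at 0.981, CORO1A, an actin-binding protein, at 0.976, WNT11, a Wnt ligand, at 0.974, MAOB at 0.967 and KRTAP3-1 at 0.964. WNT11 read 8.93 and 9.05, then 10.37 and 10.47, then 10.59 and 10.23, and like SP5 its Wnt3a groups overlapped. Only 6 genes correlated with SP5 above 0.95. None of the other members was among the 5 genes named for T or for SP5, but most could not have been. Besides T and SP5 themselves, only FOXA2 both passed the filter and had group means spanning at least 1. Nothing is therefore read from their absence.

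**Figure D5:**
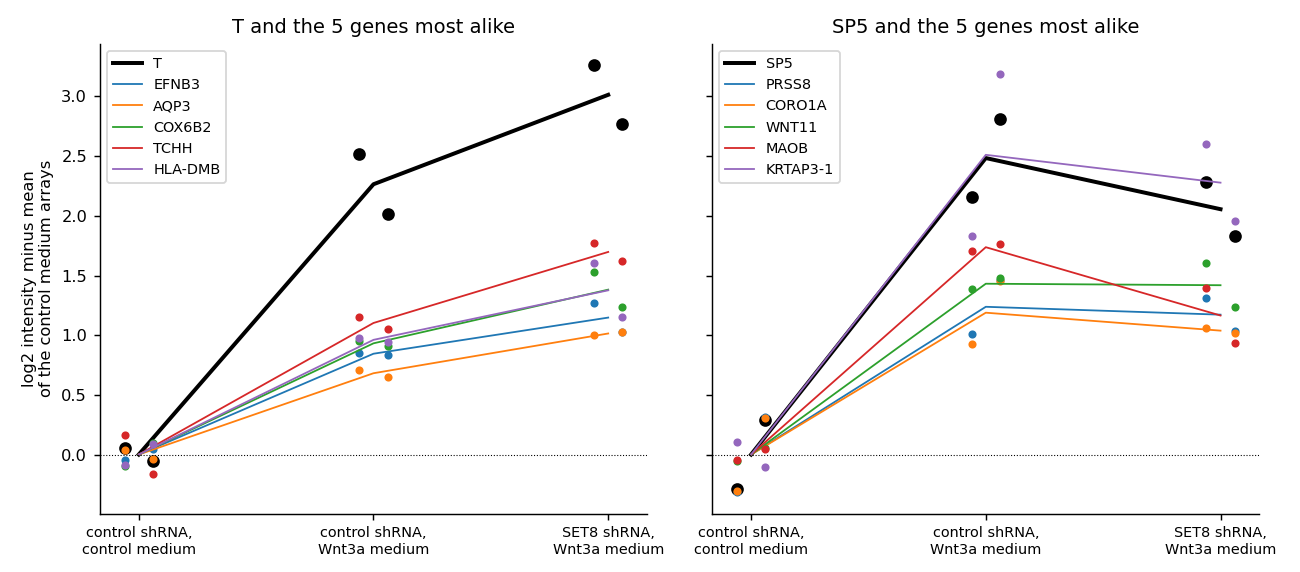
Log2 intensity minus the mean of the control medium arrays for T (left) and SP5 (right) in black and for the 5 genes most alike in colour, with points for arrays and lines joining group means. T and its 5 genes were highest with SET8 shRNA, whereas SP5 and its 5 genes had their highest mean in Wnt3a medium with control shRNA.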

How the data were processed

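RNA from 6 HEK293 samples was read on single-colour NimbleGen arrays. The authors deposited 1 linear intensity per probe set and array, made with RMA per the submitters' processing notes, whose version and settings are not given in the sources used here. Positions are hg18 per the file headers. These were put on the log2 scale, no offset being added. Probe sets above their array's median on at least 2 of 6 arrays (23808) were fitted with limma 3.58.1 in R 4.3.3 as 3 groups, with 3 residual degrees of freedom, 4.32 from the prior, and a prior SD of 0.282. Calls needed a Benjamini-Hochberg adjusted p under 0.05 over all tested probe sets. The random control set (1994 probes) was left out. Array number limits the precision. The script was tested on simulated data.

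All member probe sets were named, lists used the probe set with the highest mean over all arrays per gene, and the 5 most alike genes were taken by Pearson's r. Members, lists and tests were chosen with earlier results of these data known. The labels do not say whether replicates came from separate cultures, and p-values therefore measure only the spread among these arrays, possibly a technical one. Alternatives changed the filter, normalisation, offset, variance model, block and arrays fitted.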

Additional observations from a re-analysis of the deposited data

How the results depend on the processing

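Under the other settings, the sign of every member difference stayed the same. Of their values, 464 counted as unchanged, while 4 lost the threshold, 2 gained it and 1 moved. For tested probe sets outside the Wnt3a comparison, unchanged means on the same side of the threshold. For all other values no threshold applied, and unchanged means a shift smaller than the SD within the groups compared. Counts of called probe sets moved most. Wnt3a medium gave 0, but 2 with a filter at the 60th percentile or an intensity trend. The comparison of shRNAs gave 0, but 15 with the trend and 28 with only its 4 arrays fitted, and 0 to 28 with 1 array left out. SET8 shRNA with Wnt3a medium against control gave 12, but 0 with no filter, 0 with a filter at the random level, 52 at the 60th percentile, 6 after quantile normalisation, 31 with the trend, 230 with only 4 arrays, and 0 to 230 with 1 array left out. Leaving out 1 array of the group not compared is the same fit as with only the 4 arrays compared. The upper ends of both ranges therefore repeat the counts of those fits. Why the other counts moved was not tested.

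For that comparison T (BC098425) kept a log2 fold change of 3.01, with limma adjusted p of 0.164 with no filter, 0.167 with the random level filter and 0.0501 with the trend. With only 4 arrays fitted the limma adjusted p was 0.0060, which is no independent test since T was chosen on the same control arrays. T was too dim for the 60th percentile filter, which gave no value. With 1 array left out the difference ranged from 2.77 to 3.26. SP5 kept 2.06, with a limma adjusted p of 0.0174 with only 4 arrays fitted, which is no independent test since SP5 was chosen on the same control arrays, and ranged from 1.77 to 2.34 with 1 array left out. An offset of 16 lowered the Wnt3a difference of T (BC098425) to 1.91. With 1 array left out, 16 of 51 member differences changed sign. Those tested were the differences of both MSX1 probe sets against control (-0.10 to 0.30 and -0.0062 to 0.50), of MSX2 (BC015509) against control (-0.27 to 0.15) and of TBX3 (BC025258) between shRNAs (-0.83 to 0.24) and against control (-0.40 to 0.20). Those not tested were EOMES for Wnt3a medium (-0.77 to 1.43) and between shRNAs (-0.11 to 2.09), EVX1 in all 3 comparisons, and for Wnt3a medium both GSC probe sets, FOXA2 (NM_021784, -0.64 to 0.90), GATA6 (NM_005257), MSX1 (BC067353) and TBX3 (BC025258).

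The labels give the groups the same replicate numbers but no shared culture or day. Replicate differences correlated at 0.75 between control and Wnt3a medium with control shRNA and at -0.29 between either and SET8 shRNA, so the pairing is not established. With the replicate block, 0 probe sets were called in each comparison, and the T (BC098425) difference of 3.01 had a limma adjusted p of 0.103. A replicate block with the SET8 shRNA numbers crossed, chosen after seeing the data, called 3, 182 and 792 probe sets.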
